A study of Mus musculus with 24 samples.

Results

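The 2 whole-embryo libraries homozygous (HO) for a Setd2 null allele were set against the 4 embryo libraries of the same line that were heterozygous (HE, 2 libraries) or wild type (WT, 2 libraries). These 6 libraries were chosen by line and genotype from the 24 of the series, and every gene with enough counts was tested. All were messenger RNA libraries from C57BL/6 mice at embryonic day 9.5. The remaining embryo libraries came from a second Setd2 line carrying a catalytic dead (CD) allele, with 2 libraries each of HO, HE and WT embryos. The labels do not say whether replicates came from separate embryos or litters, nor which part of Setd2 the null allele lacks, so p-values measure the spread between these libraries. HO 1 and HO 2, the replicates of the homozygous group, differed in sex transcripts and were therefore from different embryos.

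Setd2 encodes a histone methyltransferase that travels with elongating RNA polymerase II and places trimethylation on lysine 36 of histone H3 over the bodies of transcribed genes. The mark is read by DNA methyltransferases, by splicing and repair factors and by chromatin remodelers, and is known for keeping transcription from starting inside gene bodies. Mouse embryos without Setd2 are known to die in midgestation with vascular and growth defects. At this stage the embryo is closing its neural tube, adding somites and filling its pharyngeal arches with neural crest, while its heart beats and primitive red cells circulate from the yolk sac.

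Levels are CPM, reads of a gene scaled to a common library size after TMM adjustment. Fold changes are on the log2 scale, HO minus the mean of the WT and HE group means, with their standard error (SE). A gene is written to have risen or fallen when its edgeR quasi-likelihood test gave a Benjamini-Hochberg adjusted p under 0.05 over the 19215 genes tested. A gene named with a fold change but no such verb passed too, unless its printed adjusted p or the text beside it says otherwise. Whole-embryo RNA cannot tell fewer cells of a type from less RNA per cell.

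Setd2 itself (ENSMUSG00000044791, mm10 chromosome 9, 110532597 to 110618633) checked the labels. It stood at 93.3 and 104 CPM in HO embryos, against 169 and 157 CPM in HE and 232 and 229 CPM in WT embryos. The libraries thus fell into 3 steps by genotype with no overlap, and HO embryos lay below all others (log2 fold change -0.97, SE 0.063, edgeR adjusted p = 8.85e-07). Transcript from the gene was still counted in both HO libraries, and which exons it covers cannot be seen in counts per gene. Between HE and WT embryos Setd2 differed by -0.50 (SE 0.0691, edgeR adjusted p = 0.057), short of the threshold.

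The homozygous embryos differed from the other genotypes of their line in a large share of the transcriptome. Of 19215 genes, 7414 (38.6%) were called, 3826 (19.9%) higher and 3588 (18.7%) lower in HO embryos. At 2-fold or more, 1016 genes (5.29%) rose and 803 (4.18%) fell. The median over all genes tested was 0.017, which TMM scaling holds near no change, so it does not measure the balance of rises and falls. With library totals alone in place of TMM, 3473 genes rose and 3952 fell. Both HO libraries lay above all 4 others in 5264 genes (27.4%) and below them in 5149 (26.8%). HE and WT embryos differed in 2 genes by edgeR (0.0104% of those tested), with 464 at an unadjusted p under 0.05. Those genes were the pseudogene Tma7-ps, at 21.4 and 20.7 CPM in HE against 11.7 and 11.6 CPM in WT embryos (adjusted p = 0.0337), and AC149090.1, at 4.33 and 3.74 CPM in HE against 15.6 and 14.7 CPM in WT embryos (adjusted p = 0.0337). Neither passed when any 1 of the 4 libraries was left out.

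Library totals lay at 26310857 and 24106223 counts in HO embryos, against 24935405 to 25938731 in the 4 others. More genes had a count in HO libraries (27589 and 27930) than in the others (26781 to 27043), although HO 2 was the shallowest library. On the first principal component of the 6 libraries, which held 62.2% of the variance, the HO libraries stood at 51.6 and 70.6 and the 4 others between -32.5 and -28.2. The second component, with 14% of the variance, set HO 1 (-34) apart from HO 2 (28.3). The HO libraries also differed more from each other than the HE or WT libraries did, with a chi-square of 15.7 per degree of freedom against 2.77 in HE and 3.59 in WT embryos. In the CD line it was 4.04 in HO, 6.03 in HE and 12.2 in WT embryos.

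Sex was balanced across the comparison. Xist, transcribed from the inactive X chromosome of females, stood at 3.2 and 1320.5 CPM in HO 1 and HO 2, against 1.12 and 0.994 CPM in HE and 2118 and 2148 CPM in WT embryos, and the Y-linked Ddx3y mirrored it (53.7 and 0 CPM in HO 1 and HO 2, against 70.5 and 75.2 in HE and 0.155 and 0 in WT). HO 1 and both HE libraries were therefore male, and HO 2 and both WT libraries female. HE and WT genotype thus cannot be told apart from sex, and as Ddx3y was not called between them (adjusted p = 1), the 2 genes called there do not measure how alike HE and WT embryos are. This allowed the response to be taken in a male and in a female comparison that share no library. Over 14901 genes at 1 CPM or more, HO 1 minus HE and HO 2 minus WT, each on log2(CPM + 0.5), had a Pearson correlation of 0.796 across genes (genes are no independent replicates). The direction was the same in 78.3% of them, in 96.9% of the 751 genes that differed 2-fold or more in males and in 97.6% of the 1118 that did so in females.

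**Figure D1:**
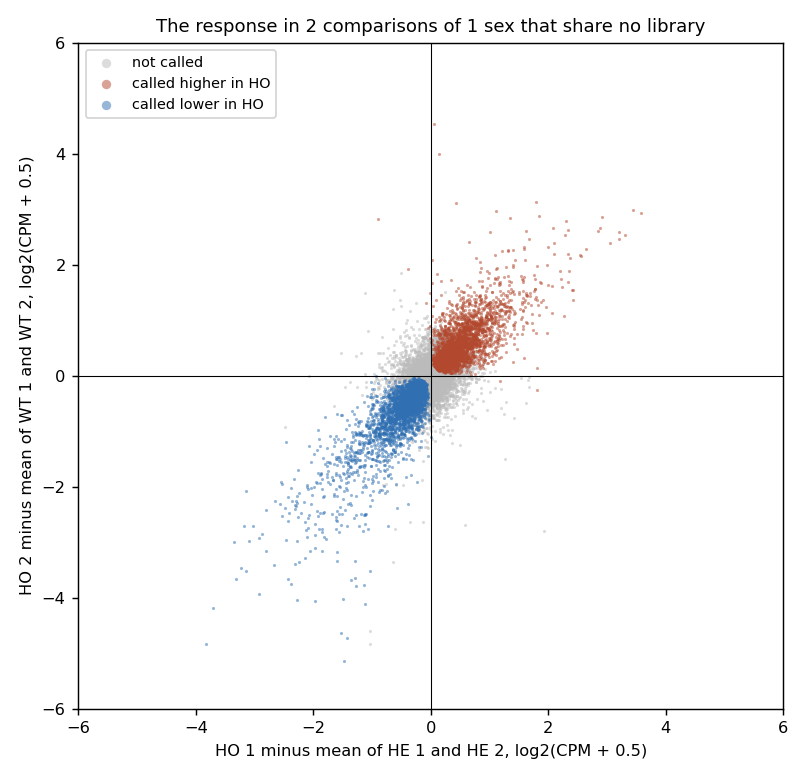
Each point is a gene of 1 CPM or more (n = 14901), with HO 1 minus the mean of the HE libraries on the x axis and HO 2 minus the mean of the WT libraries on the y axis, both on log2(CPM + 0.5). Red points were called higher and blue points lower in HO embryos, from the same 6 libraries, so most called genes have to share a sign. Over all points shown, called or not, r was 0.796 across genes.

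Genes outside the p53, amino acid stress, hypoxia, neural and zinc finger lists were ranked by p at 2-fold or more. Foxo3 (ENSMUSG00000048756, mm10 chromosome 10, 42181841 to 42276755), a transcription factor of stress resistance and growth arrest held in check by insulin signalling, led the genes that rose. It stood at 105 and 103 CPM in HO embryos, against 43.2 and 44.9 CPM in HE and 42 and 43.5 CPM in WT embryos (log2 fold change 1.26, SE 0.0534, edgeR adjusted p = 3.16e-08). The groups were far apart and each was tight. Arap2 (mm10 chromosome 5, 62602445 to 62766159), a GTPase-activating protein for Arf6 at focal adhesions, reached 25.7 and 30 CPM in HO embryos, against 6.07 and 5.25 CPM in HE and 5.1 and 5.47 CPM in WT embryos (log2 fold change 2.35, SE 0.13, edgeR adjusted p = 2.21e-07). The calcium-activated chloride channel gene Ano1 had 50.2 and 45.1 CPM in HO embryos, against 13.2 to 13.9 CPM in the 4 others (log2 fold change 1.82, SE 0.105, edgeR adjusted p = 3.53e-07). Bex1, an X-linked signalling adaptor of neural and muscle cells, rose as well (177 and 163 CPM in HO embryos, against 71.3 to 84 CPM in the 4 others, 1.13). So did Ak1, an adenylate kinase that balances AMP, ADP and ATP (1.21), Mocs1, an enzyme of molybdenum cofactor synthesis (1.02), and Gria3, an X-linked subunit of AMPA-type glutamate receptors (1.13). Inka2, an inhibitor of the kinase Pak4 (2.16), and Cnnm1, of a magnesium transport family (2.36), rose more than 4-fold. The steepest of the 10 was Alox5, the 5-lipoxygenase that starts leukotriene synthesis (10.3 and 7.17 CPM in HO embryos, against 0.695 to 1.39 CPM in the 4 others, log2 fold change 3.28, SE 0.224, edgeR adjusted p = 1.32e-06).

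Cyp24a1, the hydroxylase gene of vitamin D inactivation, was all but silent in null embryos other than HO. It was chosen after its values were seen. It had 3.39 and 3.27 CPM in HO embryos, with 88 and 78 counts, against 0 to 0.0387 CPM in the 4 others, of which 2 had no count. A gene so low elsewhere enters the test through the group where it is high, so these are values only. In the CD line it had 2.22 and 4.29 CPM in HO embryos, against 0 to 1.12 CPM in WT and HE.

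The genes that fell were led by Pole (ENSMUSG00000007080, mm10 chromosome 5, 110286306 to 110337474), the catalytic subunit of the DNA polymerase of the leading strand. It stood at 54.8 and 64.2 CPM in HO embryos, against 184 and 189 CPM in HE and 204 and 195 CPM in WT embryos (log2 fold change -1.70, SE 0.0632, edgeR adjusted p = 2.02e-08). Hjurp (mm10 chromosome 1, 88262471 to 88277633), the chaperone that loads the centromeric histone CENP-A, had 208 and 207 CPM in HO embryos, against 423 to 467 CPM in the 4 others (log2 fold change -1.11, SE 0.0466, edgeR adjusted p = 3.16e-08). In both genes the HO libraries lay close together and far below the other embryos. Fam32a, known in human as a part of the catalytic spliceosome, had 17 and 21.1 CPM in HO embryos, against 66.2 to 84 CPM in the 4 others (log2 fold change -1.96, SE 0.0862, edgeR adjusted p = 3.19e-08). The chloride-proton exchanger gene Clcn4 had 3.55 and 4.74 CPM in HO embryos, against 40.2 to 42.5 CPM in the 4 others (log2 fold change -3.32, SE 0.149, edgeR adjusted p = 3.85e-08), the deepest fall of the 10. Acap3, an Arf6 regulator, and Pusl1, a pseudouridine synthase-like gene, lie side by side on mm10 chromosome 4 (155891822 to 155907251 and 155887879 to 155891781). Acap3 had 1.97 and 2.35 CPM in HO embryos, against 20.3 to 23.3 CPM in the 4 others (-3.30), and Pusl1 had 1.66 and 1.55 CPM in HO embryos, against 10.8 to 11 CPM in the 4 others (-2.76). Pusl1 overlaps Ints11 on the other strand, and the sources used here do not say whether counting used strand.

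Atp5j2, a subunit of mitochondrial ATP synthase (38.1 and 37.9 CPM in HO embryos, against 84.2 to 88.2 CPM in the 4 others), fell by 1.19 on the log2 scale. The selenoprotein gene Selenow had 36.1 and 31.7 CPM in HO embryos, against 86.6 to 90.5 CPM in the 4 others (-1.38). Nnat, an imprinted membrane proteolipid of the developing brain that lies inside an intron of Blcap, had 66.8 and 60.4 CPM in HO embryos, against 167 to 175 CPM in the 4 others (-1.43). Syce2, known as a central element of the meiotic synaptonemal complex, had 3.78 and 4.53 CPM in HO embryos, against 15.2 to 19.8 CPM in the 4 others (-2.03), and overlaps Gcdh on the other strand. In each of these 20 genes the HO libraries do not overlap the 4 others, as the rule required.

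**Figure D2:**
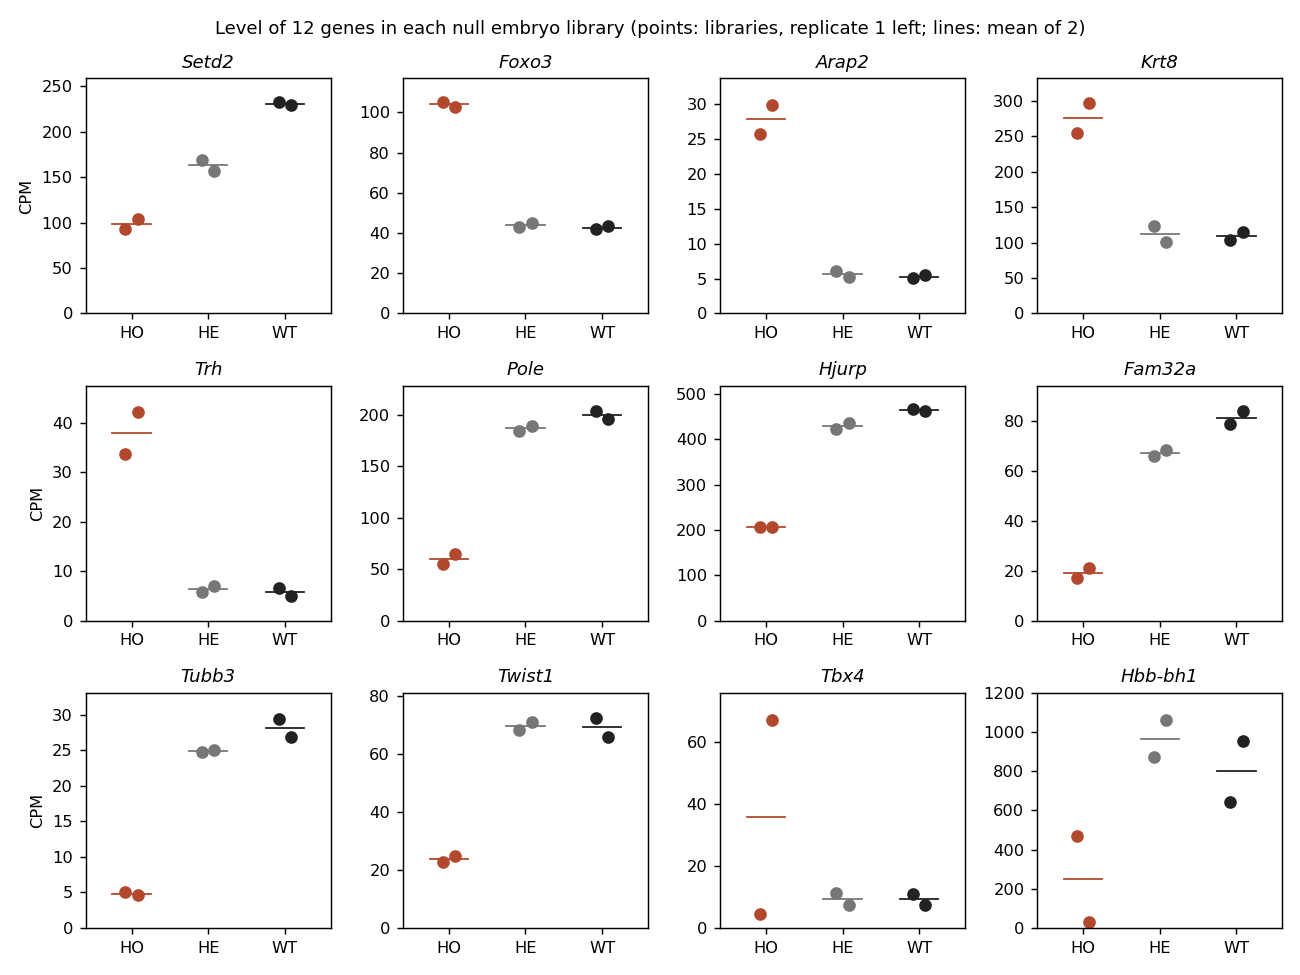
CPM of 12 genes in each of the 6 null embryo libraries, with points for libraries (replicate 1 left) and lines for the mean of 2, on linear axes from 0. Setd2 steps by genotype, Foxo3, Arap2, Krt8 and Trh are higher in both HO libraries, Pole, Hjurp, Fam32a, Tubb3 and Twist1 are lower, and Tbx4 and Hbb-bh1 separate HO 1 from HO 2.

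DNA replication genes fell more often than the background. Of 60 tested genes of origin licensing and the replication fork, 30 fell and 6 rose (median -0.16). Beside Pole, the list's strongest was Tk1, the salvage thymidine kinase, at 35.1 and 31.7 CPM in HO embryos, against 63.7 to 68.6 CPM in the 4 others (log2 fold change -0.98, SE 0.0807, edgeR adjusted p = 4.81e-06). Tk1 overlaps Afmid on the other strand. Mcm7, a subunit of the MCM2-7 helicase chosen after its values were seen, had 344 and 287 CPM in HO embryos, against 464 to 494 CPM in the 4 others (-0.61), and overlaps Cops6 and Ap4m1. Another helicase subunit moved the other way, since Mcm3 rose to 431 and 385 CPM in HO embryos, against 332 to 346 CPM in the 4 others (0.26). Orc5, a subunit of the complex that marks origins, rose to 60.2 and 65.6 CPM in HO embryos, against 42.5 to 49.3 CPM in the 4 others (0.48). Cdt1, the licensing factor that loads the helicase, rose too (99.7 and 82.5 CPM in HO embryos, against 70.9 to 77 CPM in the 4 others, 0.31, but 0.17 and adjusted p = 0.124 without HO 1), whereas Rfc3, a subunit of the clamp loader, fell (54.6 and 56 CPM in HO embryos, against 69.4 to 71.8 CPM in the 4 others, -0.35). Both were chosen after their values were seen.

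The promoters of these genes are shown because replication genes are textbook targets of E2F factors. Genes with either of the letter strings marked below also moved in opposite directions here. The sequences are from RefSeq, GRCm38.p6, 250 bases before to 50 after the start of each gene, 5′ to 3′ on its own strand. Capitals mark TTTCCCGC or TTTGGCGC on either strand. Of the strings searched, Mcm7 and Rfc3 hold only TTTCCCGC, Cdt1 holds only TTTGGCGC, and Mcm3 holds both. Mcm7 and Rfc3 also hold TTTCGCGC, which was not searched and is not marked. Mcm7 (chr5:138171834-138172133, minus strand) and Rfc3 (chr5:151651159-151651458, minus strand) fell, while Mcm3 (chr1:20820263-20820562, minus strand) and Cdt1 (chr8:122567765-122568064, plus strand) rose.
Mcm7: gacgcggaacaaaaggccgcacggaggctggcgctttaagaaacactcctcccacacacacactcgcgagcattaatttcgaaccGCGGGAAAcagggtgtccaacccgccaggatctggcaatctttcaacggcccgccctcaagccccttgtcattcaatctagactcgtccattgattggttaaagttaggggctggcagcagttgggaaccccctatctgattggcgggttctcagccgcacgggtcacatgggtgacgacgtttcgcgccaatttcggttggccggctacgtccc
Rfc3: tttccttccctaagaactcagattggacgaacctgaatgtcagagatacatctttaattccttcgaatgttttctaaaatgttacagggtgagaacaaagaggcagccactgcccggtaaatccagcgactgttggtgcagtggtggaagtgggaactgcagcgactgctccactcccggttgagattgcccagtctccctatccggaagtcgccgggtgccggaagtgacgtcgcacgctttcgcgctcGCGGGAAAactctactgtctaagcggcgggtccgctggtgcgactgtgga
Mcm3: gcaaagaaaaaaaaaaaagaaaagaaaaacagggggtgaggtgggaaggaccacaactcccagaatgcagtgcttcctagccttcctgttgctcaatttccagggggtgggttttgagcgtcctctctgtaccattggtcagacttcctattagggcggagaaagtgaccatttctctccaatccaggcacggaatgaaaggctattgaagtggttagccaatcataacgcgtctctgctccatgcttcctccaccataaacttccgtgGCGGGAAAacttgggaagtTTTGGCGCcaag
Cdt1: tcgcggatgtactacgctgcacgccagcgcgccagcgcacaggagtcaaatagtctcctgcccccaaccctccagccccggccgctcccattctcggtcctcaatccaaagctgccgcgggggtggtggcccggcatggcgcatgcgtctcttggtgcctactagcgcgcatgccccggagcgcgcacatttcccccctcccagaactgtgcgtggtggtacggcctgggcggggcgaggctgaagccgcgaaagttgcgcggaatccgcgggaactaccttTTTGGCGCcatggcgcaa
Of the replication list's members with a promoter in the table, 15 of 49 (30.6%) held these letters, against 2.83% of the 12605 promoters of genes tested. They stood in 6 of 24 promoters of members that fell (25%) and in 9 of 25 of the others (36%). In the centromere and kinetochore list they stood in 3 of 20 promoters of members that fell (15%) and 1 of 17 of the others (5.88%), and in the spindle list in 3 of 17 (17.6%) and 0 of 20. Among cyclins, CDKs and their inhibitors they stood in 2 of 13 (15.4%) and 3 of 18 (16.7%). The match is of these letters alone, other forms such as TTTCGCGC are missing from the shares, and no match says nothing of E2F.

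Genes of chromosome segregation fell alongside. Of 42 centromere and kinetochore genes, 22 fell and 5 rose (median -0.18). After Hjurp, Cenpk, a subunit of the constitutive centromere complex, had 19 and 21 CPM in HO embryos, against 32.2 to 36.8 CPM in the 4 others (log2 fold change -0.79, SE 0.0861, edgeR adjusted p = 3.25e-05). Zwint, a kinetochore scaffold partner, went against the list at 277 and 303 CPM in HO embryos, against 203 to 219.8 CPM in the 4 others (0.46), as did Incenp, the scaffold of the Aurora B complex (0.24). Of 43 spindle and centrosome genes 20 fell and 7 rose. The mitotic kinesin gene Kif15 had 128 and 144 CPM in HO embryos, against 215 to 234 CPM in the 4 others (-0.71), while the citron kinase gene Cit (0.37) rose. Without HO 1, 13 spindle genes fell. Among 29 cohesin and condensin genes 9 fell and 4 rose. The topoisomerase gene Top2b, expressed mainly in non-dividing and differentiating cells, was lowest of them at 191 and 216 CPM in HO embryos, against 355 to 375 CPM in the 4 others (-0.83), and overlaps Rarb. Without HO 2, 3 spindle genes rose, and without WT 1, HE 1 or HE 2 4 did. Kinetochore genes rose in 2 without any 1 of HO 2, WT 1, WT 2, HE 1 or HE 2.

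Cyclins, kinases and their inhibitors were mixed, with 15 of 43 lower and 9 higher. The inhibitor gene Cdkn1a, which encodes p21 and arrests the cycle downstream of p53, was the strongest of them. It stood at 87.7 and 48 CPM in HO embryos, against 8.86 and 9.19 CPM in HE and 8.88 and 7.79 CPM in WT embryos (log2 fold change 2.97, SE 0.177, edgeR adjusted p = 4.55e-07), apart from all others but with HO 1 well above HO 2. Tfdp2, a dimer partner of E2F factors (-0.63), and Cdk2, the S-phase kinase (-0.37), fell, and the repressor gene E2f7 rose (0.24). Repair genes stood nearer to the background. Of 47 Fanconi and recombination genes 10 fell and 5 rose (3 without HO 2), with Rad54l at -0.66 and Rad54b at 0.51, both of which passed. These are 21.3% lower and 10.6% higher, against 18.7% and 19.9% of all genes. Of 39 excision and mismatch repair genes 8 fell and 12 rose, among them the glycosylase gene Neil3 (-0.69) and the translesion polymerase gene Polk (38.4 and 32.2 CPM in HO embryos, against 16.5 to 19.7 CPM in the 4 others, 0.98).

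Histone variant and chaperone genes gave the most one-sided fall among the chromatin lists, 22 of 32 against 3 higher (median -0.41, 19 lower without HO 1 and 14 without HO 2). The linker histone gene H1f0 had 118 and 122 CPM in HO embryos, against 207 to 219 CPM in the 4 others (log2 fold change -0.83, SE 0.0488, edgeR adjusted p = 4.14e-07). H3f3b, which encodes the replication-independent histone H3.3, fell with it (459 and 451 CPM in HO embryos, against 619.7 to 639.6 CPM in the 4 others, -0.47). Many histone genes have near-identical copies, so their counts are uncertain.

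Other chromatin genes moved both ways. Of 31 Polycomb genes 10 rose and 6 fell, with Bmi1 of the PRC1 complex at 60 and 53.8 CPM in HO embryos, against 84.9 to 96 CPM in the 4 others (log2 fold change -0.67, SE 0.0918, edgeR adjusted p = 0.000165) and Rybp, another PRC1 subunit, at 81.1 and 100.2 CPM in HO embryos, against 53.8 to 54.7 CPM in the 4 others (0.74). Of 19 COMPASS and trithorax genes 4 rose and 2 fell (21.1% and 10.5%, against 19.9% and 18.7% of all genes). The enhancer methylase gene Kmt2d rose (0.33), and Cxxc1, which reads unmethylated CpG, fell (-0.61). Remodeler genes split into 15 higher and 12 lower of 40. The BAF ATPase gene Smarca2 rose to 57.4 and 98.6 CPM in HO embryos, against 35.6 to 39 CPM in the 4 others (log2 fold change 1.05, SE 0.15, edgeR adjusted p = 0.000205), and the BAF scaffold gene Smarcc2 fell (-0.65). Without HO 2, 9 remodeler genes rose. Of 39 genes of Pol II and its elongation factors, 12 fell and 7 rose. Supt6, the histone chaperone that helps recruit Setd2 to the elongating polymerase, rose to 312 and 318 CPM in HO embryos, against 228 to 248 CPM in the 4 others (0.38). The PAF complex partner gene Rtf1 fell (-0.24).

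RNA processing genes moved both ways. For core spliceosome genes the shares were 22% higher and 22% lower, near those over all genes (19.9% and 18.7%). Core spliceosome genes stood at 9 higher and 9 lower of 41, with the central U5 protein gene Prpf8 at 1334 and 1298 CPM in HO embryos, against 822 to 903 CPM in the 4 others (0.62) and U2af2, which binds the 3′ splice site, at 293 and 275 CPM in HO embryos, against 395 to 419 CPM in the 4 others (-0.52). Of 49 SR proteins and splicing regulators 16 fell and 6 rose. Esrp1, the splicing regulator of epithelial cells, rose to 53.2 and 65.3 CPM in HO embryos, against 32.5 to 36.4 CPM in the 4 others (log2 fold change 0.81, SE 0.0913, edgeR adjusted p = 3.97e-05). Of 52 genes of RNA export, decay and polyadenylation, 13 fell, with the export gene Thoc5 lowest (-0.67), and 8 rose (25% lower and 15.4% higher). Spliceosome genes fell in 14 without HO 1 and in 5 without HO 2, WT 2 or HE 2. SR and splicing regulator genes rose in 2 without HO 2 and in 3 without WT 1 or HE 1, and export and decay genes in 5 without HO 1 and 4 without HO 2.

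Protein synthesis and folding genes leaned upward by small amounts. Of 50 ribosome biogenesis genes 27 rose and 4 fell (median 0.17), and 18 rose without HO 1. Nop14, of the small-subunit processome, had 122 and 113 CPM in HO embryos, against 86.6 to 88.7 CPM in the 4 others (log2 fold change 0.42, SE 0.0457, edgeR adjusted p = 3.05e-05), and Tcof1, the treacle gene of ribosomal RNA transcription that is mutated in a human craniofacial syndrome, reached 298 and 262 CPM in HO embryos, against 162 to 187 CPM in the 4 others (0.69). The methyltransferase gene Fbl of the nucleolus fell (153 and 137 CPM in HO embryos, against 209 to 216 CPM in the 4 others, -0.55). Ribosomal protein genes rose in 29 of 76 and fell in 1 (median 0.09). Without HO 1, 23 rose and 11 fell, and 19 rose without any 1 of HO 2, WT 1 or HE 1. These genes have many processed pseudogenes, so their counts are uncertain. Of 45 translation factor genes 18 rose and 3 fell, and Pabpc1, the main poly(A)-binding protein, was the strongest at 3042 and 3045 CPM in HO embryos, against 1576 to 1756 CPM in the 4 others (0.86).

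Proteasome genes rose in 17 of 37 and fell in 3 (median 0.11). The base ATPase gene Psmc4 stood against them at 118 and 104 CPM in HO embryos, against 189.9 to 206 CPM in the 4 others (log2 fold change -0.85, SE 0.0573, edgeR adjusted p = 1.22e-06), while the lid gene Psmd3 rose (0.43). Cytosolic chaperones rose in 16 of 40 and fell in 4, with the abundant Hsp90ab1 at 5832 and 5640.2 CPM in HO embryos, against 3882 to 4253 CPM in the 4 others (0.49) and the small heat shock gene Hspb8 at 19.4 and 21.6 CPM in HO embryos, against 8.43 to 10.1 CPM in the 4 others (1.11). Of 38 genes of folding in the endoplasmic reticulum 15 rose and 3 fell. The secretory transcription factor gene Creb3l1 was among them (21.1 and 25.7 CPM in HO embryos, against 6.76 to 10 CPM in the 4 others, 1.49), and 9 rose without HO 2. Autophagy genes (12 higher and 8 lower of 42) and lysosomal genes (18 and 10 of 46) were nearer to balance, and without HO 2 4 autophagy genes fell. The cargo receptor gene Sqstm1 rose (108 and 128 CPM in HO embryos, against 67.6 to 74.2 CPM in the 4 others, 0.74), and the lysosomal mannosidase gene Man2b1 fell (-0.73). Without HO 2, 6 lysosomal genes fell.

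Mitochondrial and metabolic genes moved both ways. Mitochondrial ribosome and import genes were called less often than all genes (14.3% higher and 12.2% lower, against 19.9% and 18.7%). Nuclear genes of oxidative phosphorylation fell in 17 of 58 and rose in 0 (median -0.13), with 22 lower without HO 1, 9 without HO 2 or WT 2 and 10 without HE 2. Among those that fell was Ndufv1 of complex I (-0.32). Mitochondrially encoded transcripts took 1.56% and 1.62% of counts in HO embryos, against 1.96% to 2.21% in the 4 others. Of 39 genes of the TCA cycle and pyruvate entry 13 fell and 9 rose. The succinate dehydrogenase gene Sdha had 154 and 146 CPM in HO embryos, against 252 to 259 CPM in the 4 others (log2 fold change -0.77, SE 0.0518, edgeR adjusted p = 1.16e-06), whereas Me1, the cytosolic malic enzyme that makes NADPH, rose to 34 and 53.8 CPM in HO embryos, against 13.7 to 19 CPM in the 4 others (log2 fold change 1.48, SE 0.161, edgeR adjusted p = 3.09e-05). Of 49 mitochondrial ribosome and import genes 7 rose and 6 fell, and without HO 1 15 fell and 4 rose. Without HO 2, 4 of them rose and 2 fell, and 2 to 4 rose without any 1 of WT 1, WT 2, HE 1 or HE 2.

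Nucleotide synthesis genes were divided. Of 31 genes 12 rose and 6 fell. Dtymk, the thymidylate kinase that feeds dTTP synthesis, had 51.7 and 52.9 CPM in HO embryos, against 98.6 to 107 CPM in the 4 others (log2 fold change -0.97, SE 0.0523, edgeR adjusted p = 1.92e-07) and Shmt1, which supplies folate for thymidylate, fell with it (53.4 and 51.2 CPM in HO embryos, against 82.6 to 86.9 CPM in the 4 others, -0.70). The purine enzyme gene Atic rose (0.47), as did Prps2 (0.65), which makes the ribose donor of purines and pyrimidines. Of 46 glutathione and antioxidant genes 19 rose and 8 fell (5 without HO 2). Gclm, a subunit of the rate-limiting enzyme of glutathione synthesis, had 46.6 and 46.6 CPM in HO embryos, against 27.3 to 31.7 CPM in the 4 others (0.67), and Prdx2, an abundant peroxiredoxin of red cells, fell (155 and 144 CPM in HO embryos, against 238 to 255 CPM in the 4 others, -0.71).

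Lipid genes fell in 12 of 46 and rose in 5. The fatty acid-binding protein gene Fabp7 of radial glia had 0.694 and 1.13 CPM in HO embryos, against 7.22 to 9.27 CPM in the 4 others (log2 fold change -3.15, SE 0.32, edgeR adjusted p = 1.99e-05), and the brain carnitine palmitoyltransferase gene Cpt1c rose (36.8 and 28.3 CPM in HO embryos, against 12.2 to 14.3 CPM in the 4 others, 1.33). Of 30 genes of methionine, polyamine and creatine metabolism 11 fell and 6 rose, with the creatine kinase gene Ckb at 19 and 16.4 CPM in HO embryos, against 46.3 to 58.2 CPM in the 4 others (log2 fold change -1.53, SE 0.171, edgeR adjusted p = 3.71e-05). Without HO 2 or HE 2, 5 and 6 of these fell. Glycosylation genes stood at 12 higher and 11 lower of 47 (25.5% and 23.4%, against 19.9% and 18.7% of all genes). Has2, the hyaluronan synthase of the cardiac jelly, reached 78.9 and 143 CPM in HO embryos, against 61 to 65.6 CPM in the 4 others (0.82). Without WT 2 or HE 1, 7 glycosylation genes fell.

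**Figure D3:**
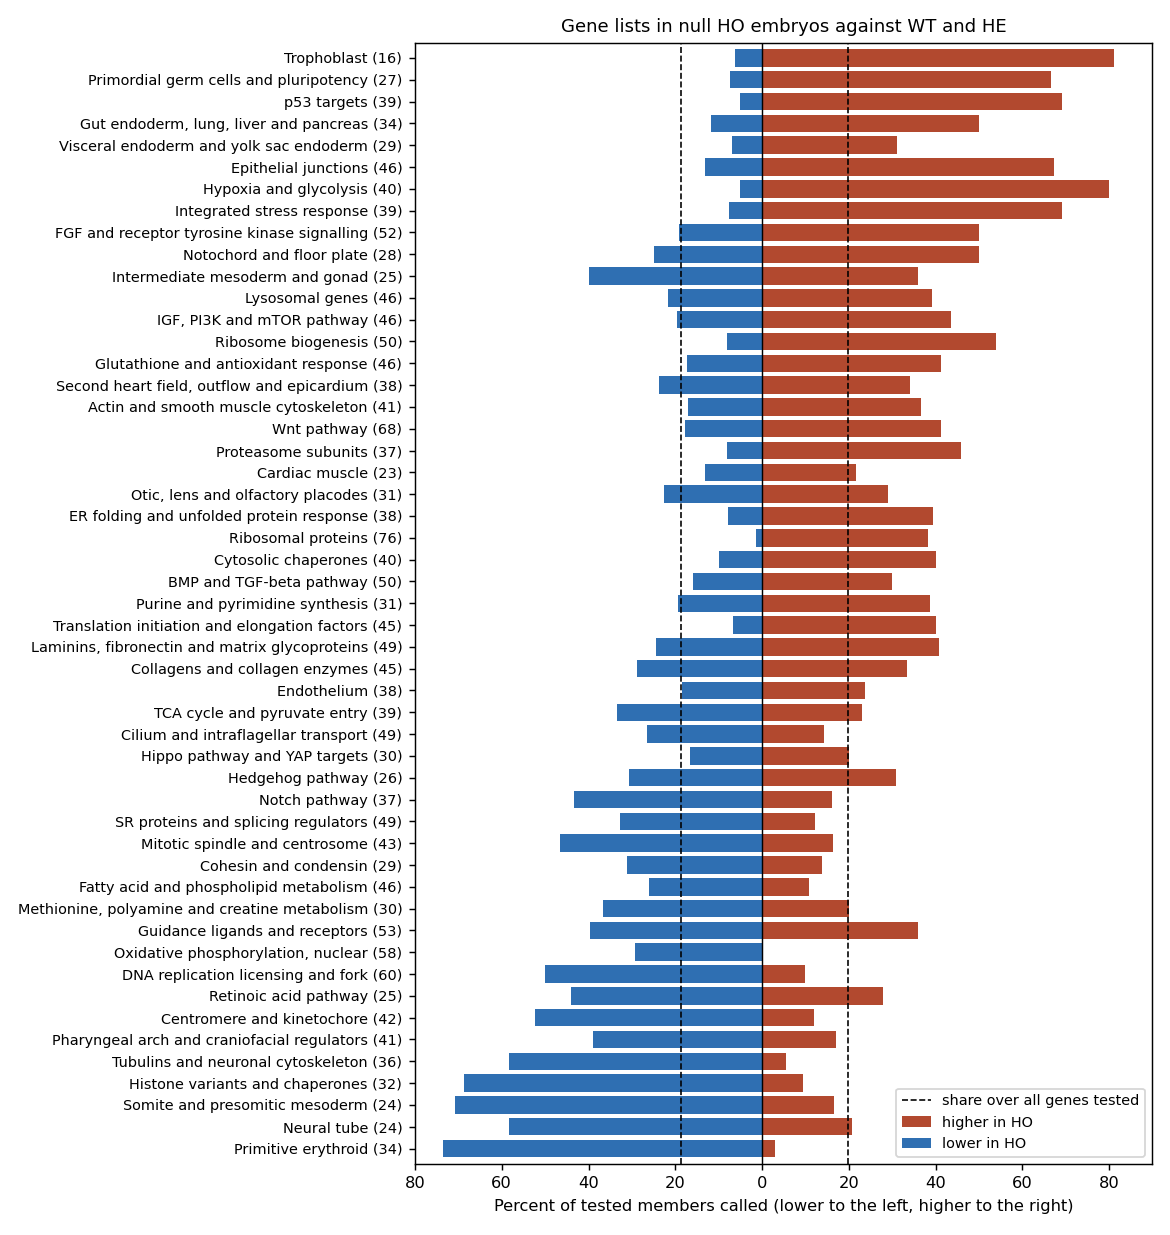
Percent of the tested members of each list (number tested in parentheses) that were called higher (red, right) or lower (blue, left) in null HO embryos, ordered by the median log2 fold change of the list. Dashed lines mark the shares over all genes tested, 19.9% higher and 18.7% lower. Over protein-coding genes alone the shares were 22.5% and 22.1%, and they varied with level. The epithelial list reaches far past the first line, while erythroid, histone and somite lists reach far past the second.

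Signalling pathways changed in both directions. The Wnt list rose in 28 of 68 genes and fell in 12 (median 0.13), with 19 lower without HO 1. Sp5, a direct target gene of beta-catenin, rose to 27.9 and 23.1 CPM in HO embryos, against 6.99 to 10.9 CPM in the 4 others (log2 fold change 1.47, SE 0.171, edgeR adjusted p = 4.93e-05). The planar polarity gene Vangl1 rose too (0.83), while the transducer gene Dvl1 (22.1 and 18.3 CPM in HO embryos, against 39.2 to 42 CPM in the 4 others, -1.03) and the feedback inhibitor gene Nkd2 (6.82 and 5.03 CPM in HO embryos, against 21.6 to 27 CPM in the 4 others, log2 fold change -2.02, SE 0.205, edgeR adjusted p = 1.98e-05) fell. The FGF and receptor tyrosine kinase list rose in 26 of 52 and fell in 10 (median 0.36). Among its ligands Fgf15 reached 54.9 and 38.6 CPM in HO embryos, against 15.5 to 17 CPM in the 4 others (log2 fold change 1.55, SE 0.141, edgeR adjusted p = 9.77e-06). Among its receptors Kit rose (101 and 116 CPM in HO embryos, against 53 to 60.1 CPM in the 4 others, 0.92), and Pdgfrb, of mesenchyme and pericytes, fell (42.7 and 48.7 CPM in HO embryos, against 69.1 to 83.5 CPM in the 4 others, -0.76).

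In the Hedgehog list 8 of 26 genes rose (5 without HO 1) and 8 fell. The ligand gene Shh stood at 15.8 and 15.9 CPM in HO embryos, against 15.9 to 17.3 CPM in the 4 others, and did not pass (adjusted p = 0.586). Its receptor and target gene Ptch1 was 503 and 487 CPM in HO embryos, against 216 to 232 CPM in the 4 others (log2 fold change 1.14, SE 0.118, edgeR adjusted p = 2.32e-05), and Foxf1, a target gene in gut mesoderm, rose as well (47.8 and 58.8 CPM in HO embryos, against 22.2 to 24.1 CPM in the 4 others, 1.20). Scube2, which helps release the ligand, had 2.74 and 2.43 CPM in HO embryos, against 12.7 to 16.9 CPM in the 4 others (log2 fold change -2.54, SE 0.2, edgeR adjusted p = 3.4e-06), and the co-receptor gene Gas1 fell (-1.07). In the Notch list 16 of 37 fell and 6 rose. The target gene Heyl had 0.694 and 1.51 CPM in HO embryos, against 6.39 to 7.92 CPM in the 4 others (log2 fold change -2.64, SE 0.346, edgeR adjusted p = 0.000116) and the ligand gene Dll1 fell (-0.99), while the ligand gene Jag1 (0.56) and the target gene Hes1 (49.6 and 45.6 CPM in HO embryos, against 29.5 to 36.1 CPM in the 4 others, 0.53) rose.

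Retinoic acid genes fell in 11 of 25 (7 without HO 2) and rose in 7 (4 without HO 1). The binding protein gene Crabp2 stood at 98.7 and 52.8 CPM in HO embryos, against 269.8 to 288 CPM in the 4 others (log2 fold change -1.88, SE 0.199, edgeR adjusted p = 2.69e-05), with HO 2 well below HO 1. Aldh1a3, which makes retinoic acid in eye and face, had 7.29 and 2.56 CPM in HO embryos, against 26.1 to 29.5 CPM in the 4 others (-2.46), and Cyp26a1, which degrades it in the tail bud, rose (0.85). IGF, PI3K and mTOR genes rose in 20 of 46 and fell in 9. After Foxo3, the mTOR inhibitor gene Ddit4l reached 24 and 18 CPM in HO embryos, against 3.3 to 4.06 CPM in the 4 others (log2 fold change 2.51, SE 0.189, edgeR adjusted p = 2.76e-06), while the PI3K regulatory subunit gene Pik3r3 (23.4 and 26.4 CPM in HO embryos, against 47.7 to 50.7 CPM in the 4 others, -0.98) and the binding protein gene Igfbp5 (-0.80) fell.

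The BMP and TGF-beta list rose in 15 of 50 and fell in 8, with the ligand gene Bmp2 at 24.3 and 31.3 CPM in HO embryos, against 11.1 to 13.8 CPM in the 4 others (1.14) and the type I receptor gene Tgfbr1 at 182 and 188 CPM in HO embryos, against 268 to 277 CPM in the 4 others (-0.56). Of 30 Hippo genes 6 rose and 5 fell (20% and 16.7%, near the 19.9% and 18.7% of all genes). The giant cadherins of this pathway divided, since Fat1 rose to 618 and 611 CPM in HO embryos, against 313 to 367 CPM in the 4 others (0.86), and Dchs1 (33.9 and 33.8 CPM in HO embryos, against 79.6 to 97.6 CPM in the 4 others, log2 fold change -1.35, SE 0.109, edgeR adjusted p = 4.21e-06) and Fat3 (-0.94) fell.

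Epithelial junction genes rose more often than any other adhesion, matrix or cytoskeleton list. Of 46 tested, 31 rose and 6 fell (median 0.48, 26 higher without HO 1 and 29 without HO 2). Desmoplakin, which ties keratin to desmosomes, was at 368 and 457 CPM in HO embryos, against 178 to 198 CPM in the 4 others for its gene Dsp (log2 fold change 1.13, SE 0.0878, edgeR adjusted p = 3.28e-06). The simple-epithelium keratin genes Krt8 and Krt18 rose to 255 and 297 CPM in HO embryos, against 100.4 to 124 CPM in the 4 others (log2 fold change 1.32, SE 0.109, edgeR adjusted p = 4.81e-06) and 209 and 210.0 CPM in HO embryos, against 80.2 to 95.2 CPM in the 4 others (1.25). Both keratin genes have processed pseudogenes, so their counts are uncertain. A cadherin gene of mesenchyme was among the members that fell. This was Cdh11, with 80.8 and 63.2 CPM in HO embryos, against 188 to 207 CPM in the 4 others (log2 fold change -1.47, SE 0.101, edgeR adjusted p = 1.41e-06). The neuronal Cdh8 had 0.193 and 0.126 CPM in HO embryos, with 5 and 3 counts, against 2.11 to 2.51 CPM in the 4 others (-3.79). Cdh8 enters the test through the groups where it is high, so these are values only.

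Basement membrane and matrix genes were divided. Laminins, fibronectin and related glycoprotein genes rose in 20 of 49 and fell in 12. The laminin chain genes Lamc1 (529.5 and 554 CPM in HO embryos, against 275 to 305 CPM in the 4 others, log2 fold change 0.91, SE 0.0694, edgeR adjusted p = 3e-06) and Lamb1 (447 and 459.7 CPM in HO embryos, against 232 to 273 CPM in the 4 others, 0.86) rose, while Vtn (2.58 and 1.93 CPM in HO embryos, against 5.82 to 7.18 CPM in the 4 others, -1.49) and the elastic-fibre gene Emilin1 (-0.87) fell. Thbs4, a matrix thrombospondin, reached 44.3 and 79.6 CPM in HO embryos, against 12 to 15.6 CPM in the 4 others (2.20). Collagen genes stood at 15 higher and 13 lower of 45 (33.3% and 28.9%, against 19.9% and 18.7% of all genes). The basement membrane chain gene Col4a6 was at 79.5 and 81.9 CPM in HO embryos, against 37.5 to 40.1 CPM in the 4 others (1.04). Col26a1 was at 25 and 19.9 CPM in HO embryos, against 57.6 to 66.4 CPM in the 4 others (log2 fold change -1.44, SE 0.114, edgeR adjusted p = 3.67e-06). Integrin and focal adhesion genes rose in 11 of 34 and fell in 5. Actin cytoskeleton genes rose in 15 of 41, including Ezr, which links actin to the apical membrane (194 and 189.8 CPM in HO embryos, against 96.3 to 116 CPM in the 4 others, 0.81), and fell in 7, including the Arp2/3 subunit gene Arpc1b (6.55 and 9.98 CPM in HO embryos, against 20.6 to 22.6 CPM in the 4 others, log2 fold change -1.37, SE 0.153, edgeR adjusted p = 3.64e-05). Without WT 2 or HE 2, 9 actin genes rose.

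Tubulins and neuronal cytoskeleton genes fell in 21 of 36 and rose in 2 (median -0.37). The neuronal Tubb3 stood at 5.01 and 4.65 CPM in HO embryos, against 24.8 to 29.4 CPM in the 4 others (log2 fold change -2.45, SE 0.119, edgeR adjusted p = 7.44e-08), and Tubb2b, mutated in human cortical malformations, at 73.4 and 62.9 CPM in HO embryos, against 171 to 183 CPM in the 4 others (-1.39). Tubulin genes share long stretches of sequence, so their counts are uncertain. Kif1a, the motor of synaptic vesicle precursors, went the other way (49.6 and 56.9 CPM in HO embryos, against 19.5 to 28.3 CPM in the 4 others, log2 fold change 1.21, SE 0.0947, edgeR adjusted p = 3.34e-06). Guidance genes were split, with 21 lower and 19 higher of 53. The ephrin receptor gene Epha7 had 37.5 and 31.7 CPM in HO embryos, against 86.3 to 92.5 CPM in the 4 others (log2 fold change -1.37, SE 0.0957, edgeR adjusted p = 1.62e-06), the ephrin ligand gene Efnb3 fell (-1.24), and the repellent gene Slit3 rose (59.4 and 63.1 CPM in HO embryos, against 33.3 to 37.5 CPM in the 4 others, 0.77). Of 49 cilium genes 13 fell and 7 rose, with Ift140 of the retrograde transport complex lowest (35.4 and 39.3 CPM in HO embryos, against 55.9 to 60.7 CPM in the 4 others, -0.63). Of 44 vesicle traffic genes 12 rose and 8 fell (27.3% and 18.2%, against 19.9% and 18.7% of all genes). The neuronal dynamin gene Dnm1 had 5.9 and 5.12 CPM in HO embryos, against 17 to 19.5 CPM in the 4 others (-1.71). Without HO 2 or HE 2, 4 and 7 vesicle genes rose, and without HO 2 or WT 2 5 fell. Without HO 2, WT 2 or HE 2, 4 cilium genes rose, and without WT 1 or HE 1 3 did. Ion channel and surface transporter genes rose in 17 of 44, among them the glucose transporter gene Slc2a3 (1688 and 1484 CPM in HO embryos, against 606 to 713 CPM in the 4 others, 1.26), and fell in 9 (5 without HO 1 or HE 2).

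Regulators of organ fields moved field by field. Pharyngeal arch and craniofacial genes fell in 16 of 41 and rose in 7 (median -0.29). Twist1, needed by cranial neural crest mesenchyme, had 22.9 and 24.7 CPM in HO embryos, against 65.7 to 72.6 CPM in the 4 others (log2 fold change -1.55, SE 0.0973, edgeR adjusted p = 7.24e-07), and the mesenchymal homeobox gene Prrx1 had 30.8 and 32.7 CPM in HO embryos, against 92.6 to 104 CPM in the 4 others (log2 fold change -1.62, SE 0.124, edgeR adjusted p = 3.1e-06). Foxi3, an early gene of the arch ectoderm and placodes, rose to 6.05 and 9.9 CPM in HO embryos, against 1.31 to 1.63 CPM in the 4 others (log2 fold change 2.42, SE 0.274, edgeR adjusted p = 3.99e-05). Pax1, of pharyngeal pouches and sclerotome, fell to 2.62 and 2.73 CPM in HO embryos, against 13.3 to 16.6 CPM in the 4 others (-2.51). Placode genes stood at 9 higher and 7 lower of 31 (29% and 22.6%, against 19.9% and 18.7% of all genes), and 4 were lower without HO 2. Among those that fell was the eye and pituitary gene Six6 (0.848 and 0.797 CPM in HO embryos, against 3.66 to 4.79 CPM in the 4 others, -2.28).

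Gut endoderm genes leaned upward, with 17 of 34 higher and 4 lower (median 0.62). Trh, the thyrotropin-releasing hormone gene, reached 33.7 and 42.1 CPM in HO embryos, against 4.9 to 7.04 CPM in the 4 others (log2 fold change 2.64, SE 0.203, edgeR adjusted p = 3.1e-06), the epithelial adhesion gene Epcam rose (75.3 and 80.6 CPM in HO embryos, against 42.6 to 45.2 CPM in the 4 others, 0.83), and so did Foxa2, the pioneer factor of endoderm and notochord (16.9 and 15.5 CPM in HO embryos, against 6.31 to 7.84 CPM in the 4 others, 1.18). Nkx2-1, the regulator of lung, thyroid and ventral forebrain, was at 0.27 and 0.335 CPM in HO embryos, against 1.97 to 2.82 CPM in the 4 others (log2 fold change -2.95). It enters the test through the groups where it is high, so these are values only. Notochord and floor plate genes rose in 14 of 28, the keratins among them, and fell in 7, including the BMP inhibitor gene Sostdc1 (1.2 and 0.545 CPM in HO embryos, against 5.21 to 5.72 CPM in the 4 others, -2.60). Without HO 1, 9 rose, and without HO 2 4 fell.

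Intermediate mesoderm and gonad genes were divided, 9 higher and 10 lower of 25. The kidney duct genes Pax2 (15.1 and 20 CPM in HO embryos, against 5.38 to 6.3 CPM in the 4 others, 1.61) and Ret (35.4 and 36.2 CPM in HO embryos, against 18.3 to 20 CPM in the 4 others, log2 fold change 0.89, SE 0.0952, edgeR adjusted p = 2.9e-05) rose, while Six2, of nephron progenitors and face (4.86 and 4.53 CPM in HO embryos, against 10.1 to 10.9 CPM in the 4 others, log2 fold change -1.15, SE 0.115, edgeR adjusted p = 1.79e-05), and Lhx9, of the gonad and limb (0.617 and 0.503 CPM in HO embryos, against 2.32 to 3.44 CPM in the 4 others, -2.39), fell. Limb bud genes stood at 9 higher, such as Sall4 (256 and 251 CPM in HO embryos, against 138 to 156 CPM in the 4 others, 0.80), and 8 lower of 30, with 14 lower without HO 2. Germ cell and pluripotency genes rose in 18 of 27 tested and fell in 2 (median 0.81), and 35 genes had been listed. A list that passes the filter through the group where it is high has to lean upward, so its counts were read as values only. Rhox5, an X-linked homeobox gene of germline and extraembryonic tissue, had 6.75 and 9.14 CPM in HO embryos, against 0.851 to 1.35 CPM in the 4 others (log2 fold change 2.87, SE 0.232, edgeR adjusted p = 4.21e-06).

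Markers of the main embryo tissues were present in every library, at lower levels for several. Neural tube genes fell in 14 of 24 and rose in 5 (3 without HO 1). The summed level of that list was 490.2 and 382 CPM in HO embryos, against 641 to 708 CPM in the 4 others. Sox2 was at 65.4 and 50.8 CPM in HO embryos, against 63.2 to 72.2 CPM in the 4 others and Sox1 at 21.9 and 14.5 CPM in HO embryos, against 19.7 to 28 CPM in the 4 others, neither of which passed (edgeR adjusted p = 0.0956 and 0.128, with log2 fold changes of -0.43 and -0.73 without HO 1), while Pax6 fell (25.5 and 22.2 CPM in HO embryos, against 51.2 to 54 CPM in the 4 others, -1.13). Of 24 somite genes 17 fell and 4 rose, with a summed 268 and 209.8 CPM in HO embryos, against 400.3 to 403 CPM in the others. Meox1, of somites, was at 19.2 and 8.26 CPM in HO embryos, against 88.5 to 94.9 CPM in the 4 others (log2 fold change -2.71, SE 0.249, edgeR adjusted p = 1.01e-05), and Tcf15 at 3.2 and 1.38 CPM in HO embryos, against 8.58 to 9.5 CPM in the 4 others (-1.98). For Pax6, Meox1, Tcf15 and both sums the groups did not overlap, and HO 2 was the lower HO library.

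Other tissues tracked 1 HO library more than the other. Of 34 primitive erythroid genes 25 fell and 1 rose. Their median change was -1.04 in HO 1 minus HE and -2.54 in HO 2 minus WT, and 17 fell without HO 2 and 29 without HO 1. The embryonic globin gene Hbb-bh1 stood at 471 and 32 CPM in HO embryos, against 873 and 1060.2 CPM in HE and 642 and 956 CPM in WT embryos (edgeR adjusted p = 0.0662, log2 fold change -1.80, and -4.78 without HO 1), and Hbb-y at 307 and 28.5 CPM in HO embryos, against 780.3 and 882 CPM in HE and 614 and 948 CPM in WT embryos (edgeR adjusted p = 0.0345). Hbb-y did not pass without any 1 of WT 2, HE 1, HE 2 or HO 2 (adjusted p = 0.0598 to 0.101). Globin transcripts took 0.128% and 0.00937% of counts in HO 1 and HO 2, against 0.203% to 0.314% in the 4 others. Slc4a1, the anion exchanger of the red cell membrane, had 50 and 2.68 CPM in HO embryos, against 93.2 to 149 CPM in the 4 others. Globin genes have near-identical copies.

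Cardiac genes went the other way between the same libraries. Of 23 tested, 5 rose and 3 fell, with 11 higher without HO 1, and 2 higher and 7 lower without HO 2. The troponin gene Tnnt2 had 128 and 203 CPM in HO embryos, against 94.8 to 99.2 CPM in the 4 others (0.76). Nppa, the natriuretic peptide gene of working chamber muscle, was near silent in both HO libraries (0.193 and 0.294 CPM, against 1.41 to 2.4 CPM in the 4 others, log2 fold change -2.96). A gene so low in HO embryos enters the test through the groups where it is high, so for Nppa these are values only. Second heart field, outflow and epicardial genes stood at 13 higher and 9 lower of 38, and at 8 and 13 without HO 2. Tbx18, of the epicardium and sinus horns, was at 4.36 and 2.77 CPM in HO embryos, against 12.5 to 15.1 CPM in the 4 others (-1.96). Endothelial genes stood at 9 higher and 7 lower of 38, and at 3 and 12 without HO 2. Without WT 2 or HE 2, 4 endothelial genes rose, and without HE 1 5 did. With all libraries the endothelial shares were 23.7% higher and 18.4% lower, near those of all genes (19.9% and 18.7%). Kdr, the main VEGF receptor gene, was at 126 and 223 CPM in HO embryos, against 127 and 126 CPM in HE and 128 and 113 CPM in WT embryos and passed as higher (log2 fold change 0.50, SE 0.157, edgeR adjusted p = 0.0249), with HO 1 inside the range of the 4 others and an edgeR adjusted p of 0.058 to 0.95 without any 1 of WT 2, HE 1, HE 2 or HO 2. Pecam1, of endothelial junctions, was at 28.1 and 40 CPM in HO embryos, against 36.4 and 37.2 CPM in HE and 38.4 and 37.2 CPM in WT embryos, with the groups overlapping. Etv2, the early inducer of endothelium and blood, rose (5.17 and 10.1 CPM in HO embryos, against 2.01 to 2.9 CPM in the 4 others, log2 fold change 1.63, SE 0.336, edgeR adjusted p = 0.00247, but adjusted p = 0.0531 without HO 2), and Gja5, a connexin gene of arteries, fell (2.89 and 6.84 CPM in HO embryos, against 15.9 to 19.3 CPM in the 4 others, log2 fold change -1.84, SE 0.301, edgeR adjusted p = 0.000535).

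Transcripts from outside the embryo proper were also measured. Trophoblast genes rose in 13 of 16 tested, of 31 listed, and in 7 without HO 2. Members near silence elsewhere passed the filter only through the library where they were high, so this count is given as a value alone. The placental lactogen gene Prl3d1 had 0.0386 and 11.9 CPM in HO embryos, against 0 and 0.0398 CPM in HE and 0 and 0.076 CPM in WT embryos, and Prl2c3, a proliferin gene with near-identical copies, 0.501 and 13.7 CPM in HO embryos, against 0.387 and 0.437 CPM in HE and 0.309 and 0.494 CPM in WT embryos. Tpbpa and Ctsq were at 0 in all 6 libraries. The list's summed level, most of it from the imprinted Peg10 (1609 and 2273 CPM in HO embryos, against 983 to 1178 CPM in the 4 others, log2 fold change 0.84, SE 0.0979, edgeR adjusted p = 4.88e-05), was 1706 and 2432 CPM in HO embryos, against 1049.7 to 1242 CPM in the others. Prl3d1 and Prl2c3 were thus high in HO 2 alone, and their part in its other values was not tested.

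Of 29 visceral endoderm genes 9 rose and 2 fell. Their median change was 0.66 in HO 1 minus HE and -0.07 in HO 2 minus WT. Their summed level was 989 and 972 CPM in HO embryos, against 565 to 608 CPM in the others. It includes Lrp2, an endocytic receptor also of embryonic epithelia (364 and 381 CPM in HO embryos, against 136 to 154 CPM in the 4 others, log2 fold change 1.35, SE 0.126, edgeR adjusted p = 1.13e-05). Of the defining genes, Afp was at 8.1 and 1.68 CPM in HO embryos, against 8.51 to 14.9 CPM in the 4 others (edgeR adjusted p = 0.142, log2 fold change -1.13, and -2.70 without HO 1). Cubn was at 12.6 and 3.44 CPM in HO embryos, against 3.24 to 3.98 CPM in the 4 others. Apoa1 was at 2.08 and 0.545 CPM in HO embryos, against 0.358 to 1.14 CPM in the 4 others. Amn was at 0.501 and 0.21 CPM in HO embryos, against 0.19 to 0.464 CPM in the 4 others. Afp, Cubn, Apoa1 and Amn did not pass. Of 15 parietal endoderm genes 7 rose and 3 fell (summed 2279 and 2246 CPM in HO embryos, against 1476 to 1684 CPM in the others), with the laminins above among them. Decidual genes rose in 4 of 10 tested, of 20 listed, and fell in 1 (summed 122 and 126 CPM in HO embryos, against 89.7 to 105 CPM). The defining Gzmd and Gzme were at 0 in all 6 libraries, and Bmp2, given above, was among those that rose. Low members enter the test more easily when they are high in a group, so the decidual count is a value alone. Leukocyte genes fell in 5 of 10 tested, of 24 listed, and rose in 2, with 2 lower without HO 1, 1 without HO 2, and 3 without WT 2 or HE 1 (summed 15.3 and 17.8 CPM in HO embryos, against 19.3 to 22.1 CPM), with Ptprc at 0.266 CPM or less in every library.

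**Figure D4:**
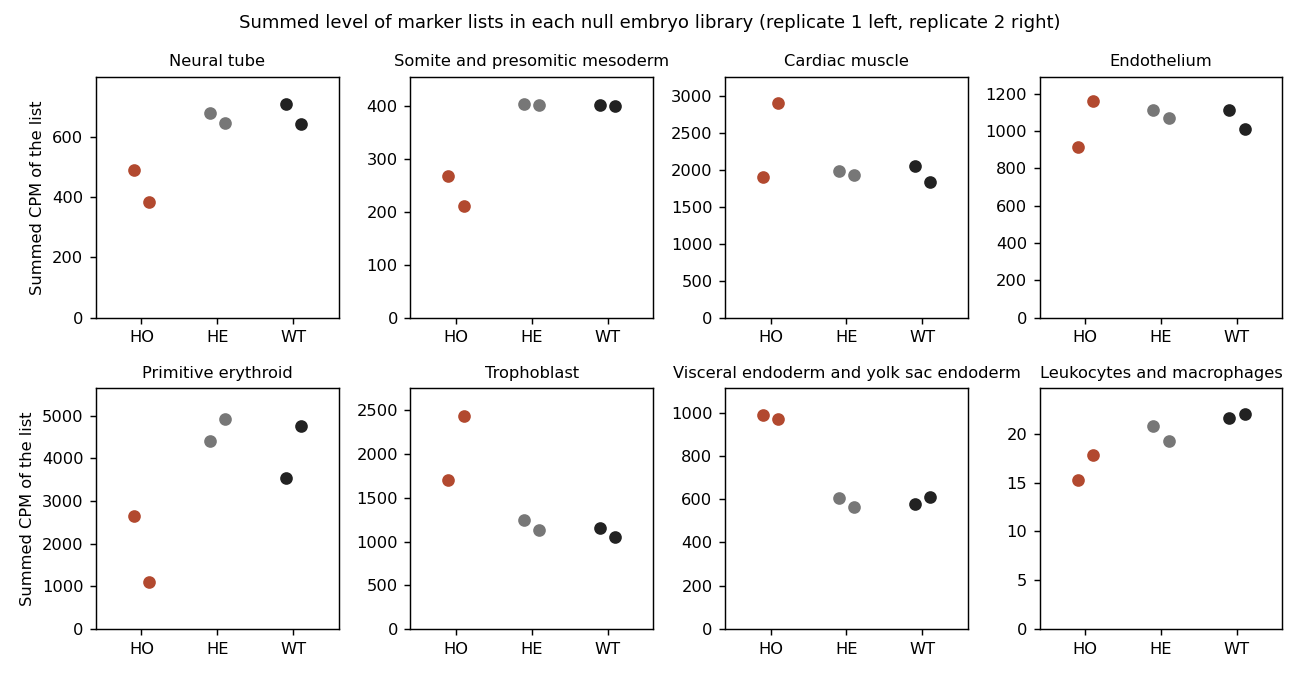
Summed CPM of 8 marker lists in each of the 6 null embryo libraries (replicate 1 left, replicate 2 right), on linear axes from 0. Neural tube and somite sums are lower in both HO libraries, erythroid sums are lowest in HO 2, and cardiac and trophoblast sums are highest in HO 2.

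The gap between the HO libraries was largest, among genes of 5 CPM or more, for sex-linked, erythroid and placental genes and for Tbx4. Tbx4, a T-box gene of hindlimb and allantois, stood at 4.59 and 67.1 CPM in HO embryos, against 11.3 and 7.24 CPM in HE and 11 and 7.49 CPM in WT embryos. HO 1 was thus below all 4 others and HO 2 far above them. Plac1 (3.51 and 17.2 CPM in HO embryos, against 3.09 and 3.86 CPM in HE and 3.82 and 3.53 CPM in WT embryos), Nxf7 (2.62 and 28.9 CPM in HO embryos, against 2.01 and 1.63 CPM in HE and 3.52 and 2.39 CPM in WT embryos), Nrk (26 and 106 CPM in HO embryos, against 42.3 and 33.6 CPM in HE and 42.5 and 39.2 CPM in WT embryos) and Fmo1 (3.35 and 14.7 CPM in HO embryos, against 6.19 and 4.97 CPM in HE and 6.57 and 5.59 CPM in WT embryos) were also highest in HO 2 of the 6 libraries, and Nrk and Fmo1 alone of these were lowest in HO 1. Plac1 and Nrk are X-linked genes known from placenta. Without HO 2 the count of called genes was 5707, and without HO 1 it was 6906.

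The stress lists are given for scale. In these 6 libraries 27 of 39 p53 targets rose and 2 fell, 27 and 3 of 39 genes of the integrated stress response, and 32 and 2 of 40 hypoxia and glycolysis genes. With HO 1 left out the rises were 24, 18 and 23, and with HO 2 left out 26, 28 and 31.

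Direction varied with gene length. Protein-coding genes of the shortest quintile (168 to 8282 bases) rose in 15.2% and fell in 26.4%, and those of the longest (75845 bases and over) rose in 28.9% and fell in 18.9%. The shares changed in order across all 5 quintiles. Among the upper 2 quintiles of level, where the shortest and longest quintiles had medians of 73.8 and 82.9 CPM in WT and HE embryos, the pattern was as wide, with 16.1% higher and 36.4% lower among the shortest and 31.9% higher and 21.7% lower among the longest. The median changes stayed small, -0.10 and 0.03 in these groups. Genes with 1 merged exon rose in 14.6% and fell in 25.1%, and those with 17 or more rose in 29% and fell in 19%. Gene length and exon number move together, and their separate parts were not tested.

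**Figure D5:**
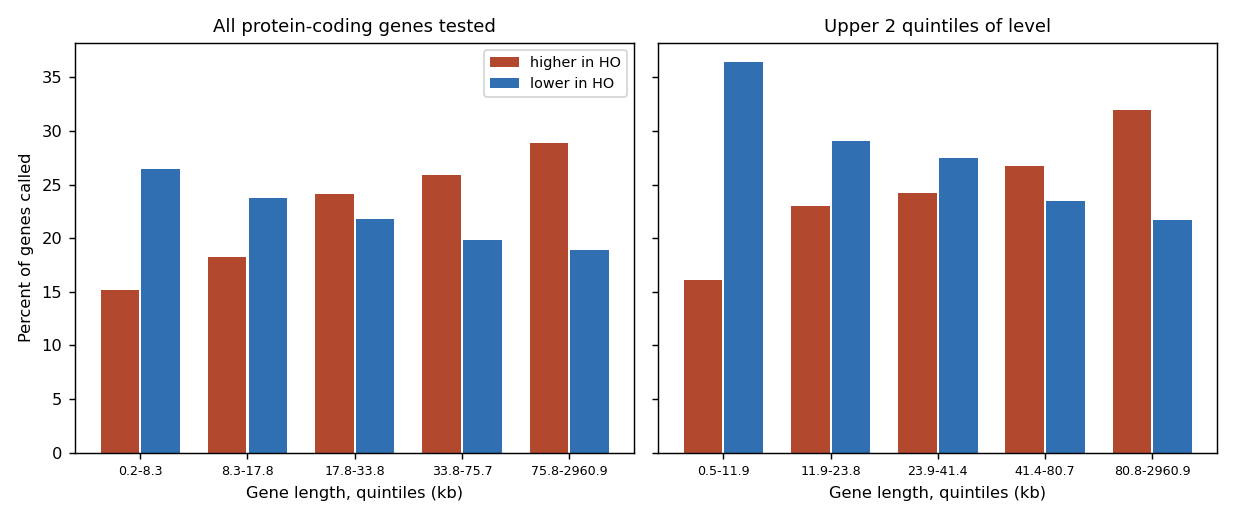
Percent of protein-coding genes called higher (red) or lower (blue) in null HO embryos by quintile of gene length (x axis, kb), for all genes tested and for the upper 2 quintiles of level. The share higher climbs and the share lower drops with length in both panels.

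Calls varied with level. In the lowest quintile of protein-coding genes by level in WT and HE embryos (2.18 CPM or less) 21.8% rose and 9.14% fell, while in the fourth quintile (33.6 to 82.1 CPM) 20.4% rose and 29.7% fell, and above 82.1 CPM 28.3% rose and 25.6% fell. Genes annotated as antisense RNA rose in 11.8% of 764 and fell in 4.19%. Long noncoding genes from bidirectional promoters rose in 19.8% of 91 and fell in 1.1%, and lincRNA genes rose in 17.7% of 588 and fell in 10.5%. Antisense genes overlap a partner and, without the use of strand known, their reads cannot be told from those of the partner. A low-level gene enters the test more easily when it is high in a group, so these shares are values only. Across chromosomes the share higher lay between 16.9% (chromosome 16) and 23.7% (chromosome X).

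Counts of named genes that overlap another annotated gene are uncertain, since the sources used here do not give the use of strand. Beside those said above to overlap, these are Arpc1b (with Pdap1), Bex1 (Tceal7), Cdk2 (Pmel), Cenpk (Ppwd1), Cyp24a1 (Pfdn4), Dnm1 (Ciz1), Dvl1 (Tas1r3), Ezr (Sytl3), Gja5 (Gpr89), Ift140 (Tmem204), Prdx2 (Junb and Rnaseh2a), Rad54b (Fsbp), Rad54l (Lrrc41), Shmt1 (Smcr8), Sqstm1 (Mrnip), Supt6 (Sdf2) and Xist (Tsix). Predicted genes, microRNAs or other small or noncoding genes overlap many of the rest.

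Homozygous CD embryos were compared with their own WT and HE embryos in the same fit, with which no library is shared. There 4845 genes (25.2%) were called, 2318 (12.1%) higher and 2527 (13.2%) lower. The difference between the homozygous effects was called in 3 genes by edgeR (0.0156%), with 1898 at an unadjusted p under 0.05. Setd2 was one of them. It had 218 and 213 CPM in CD HO embryos, against 222 to 255 CPM in CD WT and HE (log2 fold change -0.11, SE 0.0598, adjusted p = 0.194). The null effect minus the CD effect was -0.86 (SE 0.0852, adjusted p = 0.00174). The ribosomal protein gene Rpl29 was at 362 and 303 CPM in null HO embryos, against 304 to 319 CPM in null WT and HE, and at 30 and 26 CPM in CD HO embryos, against 156 to 309 CPM in CD WT and HE (difference 3.06, SE 0.103, adjusted p = 1.84e-08). The predicted gene Gm10709 followed it (0.153 and 0.0429 CPM in CD HO embryos, against 6.21 to 11.4 CPM in CD WT and HE, difference 6.24, adjusted p = 1.41e-05), and both have copies that share reads. Without null HO 1 the count of such genes was 730, and without CD WT 1 it was 308, so this count rests on single libraries. It was 10 without null HO 2, and 6 without CD HO 2 or CD WT 2.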

How the data were processed

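The 12 messenger RNA libraries of embryos at embryonic day 9.5 were used, of which 6 null embryo libraries make the comparison. Per the submitters' processing notes, fastp 0.22.0, HISAT2 2.2.1, featureCounts 2.0.1 and DESeq2 1.32.0 were used with mm10. Not given in the sources used here are the annotation release, the strand setting and how reads with several matches were counted. The authors deposited raw read counts per gene for 55421 genes, which are the only values used. A second set of columns, which by their values hold counts scaled by gene length and library total, was not used. Positions are from GENCODE M21, which held 55154 of the identifiers, and promoters from RefSeq. Date-like symbols of 27 genes were replaced from their identifiers.

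Counts were fitted with edgeR 4.0.16 (R 4.3.3) over all 12 embryo libraries and 6 groups, which share their spread estimate (6 residual degrees of freedom, common biological coefficient of variation 0.087). TMM scaling, filterByExpr (minimum count 10, minimum total count 15, which kept 19215 genes), the quasi-likelihood test and Benjamini-Hochberg adjustment were used at 0.05. HO was set against the mean of WT and HE. Totals of 24106223 to 26310857 counts per null library limit the precision of genes of low level. On simulated data of this comparison over 18766 genes, 59.2% of genes changed by 1 log2 unit and 87.6% of those changed by 2 were recovered, with 13 false calls among 18571 unchanged genes. The simulation changed 200 genes and gave each gene the same spread in all groups. In the real counts 38.6% of genes were called and HO libraries differed more from each other than HE or WT libraries. These rates therefore need not carry over.

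The rule for named genes takes Setd2; up to 10 each way of smallest p at 1 log2 unit and 1 CPM or more with HO on 1 side of all others, passing over stress, neural, zinc finger, predicted and pseudogene entries; up to 2 each way per list; up to 8 each way by the gap between HO libraries at 5 CPM or more; up to 4 each way of smallest p between HE and WT; up to 8 each way for the difference between lines; and cell type markers. Genes given as the lowest or highest called member of a list, and those said to be, were chosen after their values were seen, and not every gene the rule allows is named. The 71 gene lists were written by hand from general knowledge, and 2628 of their 2638 symbols were found. The comparison, lists and rule were chosen with earlier results of these data known. Lists are given by counts and medians beside all genes, with no set test. Alternatives covered scaling, filtering, DESeq2 1.42.0, the libraries fitted, WT or HE alone, a sex term, a replicate block and leaving out each library. Results of a few genes are not reported here.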

Additional observations from a re-analysis of the deposited data

Results flagged for a closer look

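Of 177 genes whose 4 WT and HE libraries were looked at for a library far from the rest, 4 had one, and chance gives about 1 in 20. Dvl1 stood at 39.2 CPM in WT 2, against 41.8 to 42 CPM in the other libraries of these groups. Kdr stood at 112.8 CPM in WT 2, against 126.1 to 128.0 CPM. Sostdc1 stood at 5.72 CPM in HE 1, against 5.21 to 5.25 CPM. Tnnt2 stood at 94.8 CPM in WT 2, against 99.0 to 99.2 CPM.

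The homozygous effect differed between the null and CD lines, by the test of the difference itself, in Setd2 (-0.86), Rpl29 (3.06) and Gm10709 (6.24, all log2, null minus CD). The low Rpl29 and Gm10709 levels are in the CD HO libraries.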

How the results depend on the processing

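The count of called genes was 7414 and stayed within 1.5 times of it under every alternative run: 7394 with DESeq2 size factors, 7425 with library totals, 7576 without the filter, 7091 with a filter at 1 CPM, 6184 with DESeq2, 7408 from the 6 null libraries alone, 7470 with a sex term, 6288 against WT and 5826 against HE alone, and 5707 to 6906 with 1 library left out. With the replicate block it was 7273, although the numbers pair no samples. With library totals alone 3473 rose and 3952 fell, against 3826 and 3588 as reported. HE against WT gave 2 genes, 1 with the replicate block and 0 to 1 with a library left out. The difference between lines gave 3 genes, 3 with the replicate block and 3 to 730 with a library left out, the cause of which was not tested.

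The 161 genes given with a fold change against the 4 others kept their direction under all of these alternatives. Most were named because they had passed with both HO libraries on 1 side of all others. The rule thus largely fixed the kept directions and calls, which do not show how stable other genes are. In 1610 tests that left out no library, 1600 gave the same call, 4 lost it and 6 gained it. In 966 tests that left out 1 library, 952 gave the same call, 10 lost it and 4 gained it. The genes that lost a call were Cdt1, Etv2, Hbb-y and Kdr. Hbb-y did so also against WT alone and against HE alone (adjusted p = 0.0573 and 0.0527), and Kdr with DESeq2 and against HE alone (adjusted p = 0.0661 and 0.0788). Those that gained one were Afp, Hbb-bh1, Sox1 and Sox2, each without HO 1 and without the filter, Hbb-bh1 with a sex term (-2.52, adjusted p = 0.00562) and Sox2 with the replicate block (-0.23, adjusted p = 0.0488). The fit without the filter gave a far smaller error for Hbb-bh1 (SE 0.0547, against 0.72 as reported), so the calls gained there, and its 7576, are in doubt, and the cause was not tested. Tma7-ps did not pass with the replicate block (adjusted p = 0.0525). No other named gene changed its call under the block.

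Of 840 counts of list members higher or lower without 1 library, an alternative chosen after seeing the data, 123 moved by over 1.5 times, and those of lists with 5 or more such genes are given beside the lists. Same-numbered replicates did not deviate together (correlations of -0.114 to 0.0778), so the pairing check gave no pairs. The 2 libraries of each group and genes of few counts limit what could be called.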
